A study of Mus musculus with 24 samples.

Results

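The genes described here are Selenbp1, Selenbp2, Mup3, Mup20, Mup21 and Moxd1, 6 of the 54532 genes in a count table of mouse liver mRNA sequencing. They were chosen by name after the genotype difference in these libraries was known, so their levels in knockout and wild type are given as a description with no p-value, and nothing is supported by them. All 6 had enough counts to be tested, among 15090 genes that passed the filter on low counts. Livers came from mice with intact PAR bZip genes (Hlf+/+/Dbp+/+/Tef+/+, here wild type) and from mice without all 3 of them (Hlf-/-/Dbp-/-/Tef-/-, here knockout). Every mouse was fed ad libitum, which the labels write as AL, and was 12 to 16 weeks old. Each genotype was sampled at 6 zeitgeber times, ZT04 to ZT24 in steps of 4 h from lights on, with 2 libraries for each genotype and time and 24 libraries in all. In the sample names the libraries of a group are told apart by a letter, I for the first and P for the second. The labels do not explain these letters, which are used below as set I and set P, and do not say that the libraries of a group were separate mice, so a p-value here weighs a difference against the spread of these libraries alone, part of which may be technical. The labels name no cell type to which the deletions are limited, and do not give the sex of the mice.

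Dbp, Tef and Hlf are clock-driven transcription factors that bind a DNA element called the D-box and pass daily timing on to liver genes of drug, lipid and amino acid metabolism. Major urinary proteins are small lipocalins made by hepatocytes from a cluster of near-identical genes. They are released into the blood and filtered into urine, where they carry pheromones, and their mRNAs are higher in male than in female liver because of the pulsed pattern of growth hormone, which acts through STAT5. Mup20 encodes darcin, a male urinary pheromone protein. Selenbp1 and Selenbp2 are neighbouring copies of one ancestral gene. Selenbp1 binds selenium, contains no selenocysteine and oxidises methanethiol, while Selenbp2 was first isolated as a liver protein that binds acetaminophen. Moxd1 is a homologue of the copper enzyme dopamine beta-hydroxylase.

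On mm10 the pair lies on chromosome 3, Selenbp2 (ENSMUSG00000068877) at chr3:94693556-94704413 and Selenbp1 (ENSMUSG00000068874) at chr3:94933056-94944758. Mup20 (ENSMUSG00000078672) at chr4:62050234-62054158, Mup3 (ENSMUSG00000066154) at chr4:62083476-62087342 and Mup21 (ENSMUSG00000066153) at chr4:62147932-62150863 follow each other on the minus strand, and Moxd1 (ENSMUSG00000020000) is at chr10:24223517-24302790. All 6 are protein-coding in GENCODE M21, and the values are counts over whole genes.

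The sequences upstream of the Selenbp pair and of Mup3 and Mup21 are shown because the 2 genes of each pair are alike, while their levels differed between genotypes in different ways. Reads may be shared between the rows of a pair, to an extent that the transcript stretches below describe. The windows are from RefSeq promoters on GRCm38.p6 and are written 5′ to 3′ on the gene's strand. They end at the base before the GENCODE M21 gene start, which lies upstream of the RefSeq start in all 4 genes. Capitals mark bases that differ from, or have no partner in, the other gene of the pair. The Selenbp1 window is chr3:94932833-94933055 and the Selenbp2 window chr3:94693323-94693555, both on the plus strand.
Selenbp1: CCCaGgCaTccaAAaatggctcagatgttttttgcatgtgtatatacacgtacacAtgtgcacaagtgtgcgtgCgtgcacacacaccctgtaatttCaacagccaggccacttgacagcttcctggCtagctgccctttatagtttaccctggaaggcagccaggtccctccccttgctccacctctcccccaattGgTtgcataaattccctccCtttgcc
Selenbp2: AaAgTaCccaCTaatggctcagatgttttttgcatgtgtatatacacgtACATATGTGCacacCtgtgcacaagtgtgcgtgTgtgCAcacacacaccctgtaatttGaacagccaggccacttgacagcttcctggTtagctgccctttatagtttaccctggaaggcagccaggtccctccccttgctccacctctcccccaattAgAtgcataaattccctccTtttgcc
The Mup3 window is chr4:62087343-62087567 and the Mup21 window chr4:62150864-62151091, both on the minus strand.
Mup3: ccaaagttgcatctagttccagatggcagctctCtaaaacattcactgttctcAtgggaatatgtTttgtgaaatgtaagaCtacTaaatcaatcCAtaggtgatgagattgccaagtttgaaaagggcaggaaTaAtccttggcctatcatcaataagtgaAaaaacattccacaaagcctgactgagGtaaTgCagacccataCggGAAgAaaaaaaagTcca
Mup21: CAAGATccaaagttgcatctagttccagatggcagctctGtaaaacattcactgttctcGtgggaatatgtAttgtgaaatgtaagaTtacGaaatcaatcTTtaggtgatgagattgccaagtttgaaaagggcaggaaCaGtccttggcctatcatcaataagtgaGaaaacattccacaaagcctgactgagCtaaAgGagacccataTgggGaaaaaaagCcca
Of the 223 Selenbp1 bases 15 differed, and of the 225 Mup3 bases 19 differed. The Selenbp2 window held 25 and the Mup21 window 22 bases that differed.

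The coding sequences were closer still. Selenbp1 and Selenbp2 differed at 18 of 1416 coding positions (98.7% identity), and 46.3% of the 50-base stretches of Selenbp1 transcripts, but 18.9% of its 100-base stretches, also occurred in Selenbp2 and in no other gene. Mup3 and Mup21 were 94.8% identical, and 86.7% and 80.7% of their 50-base stretches occurred in no other gene's transcripts. Of their 100-base stretches 97.8% and 95.5% were unique. Mup20, the member with the most shared sequence in the Mup cluster, had 49.5% unique 50-base and 61.2% unique 100-base stretches, and its closest other transcript was the pseudogene Mup-ps19. All Moxd1 stretches were unique to it. By contrast the Mup15, Mup19 and Mup22 transcripts had no unique 50-base stretch at all, so their rows rest on how the authors' counting placed shared reads.

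Promoters of 300 bases, 250 before and 50 after the RefSeq start, were searched on both strands for 4 motifs. These were the D-box in the forms TTATGTAA and TTACGTAA, the E-box CACGTG of clock activators and the STAT5 core TTCNNNGAA. The forms occurred in 0.936%, 0.119%, 7.15% and 8.29% of all 32817 promoters. The only match in the 5 members with a promoter entry was TTCCAGGAA in Moxd1, beginning at base -150 from the start, which has the letters of the STAT5 core. None of the 14 Mup promoters in the RefSeq table held any of the 4 motifs in this window.

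The 24 libraries held 14613001 to 19288322 counts. Levels are in CPM, counts scaled to a common library size with TMM factors. The deleted genes followed the labels: Hlf lay at 47.0 to 95.6 CPM in wild type and 0.112 to 3.34 CPM in knockout, Tef at 42.4 to 330 and 3.54 to 30.1 CPM, and Dbp at 0.279 to 56.8 and 0 to 0.114 CPM. The hepatocyte gene Alb was abundant in every library (24190 to 75140 CPM). All libraries held the Y-linked transcript Eif2s3y (5.55 to 69.8 CPM) and at most 1.34 CPM of Xist, as male tissue does. The Y-linked level was not even, however. Summed over Xist, Ddx3y, Eif2s3y, Kdm5d and Uty, wild-type set I held 12.75 to 141 CPM. Wild-type set P held 172 to 202 CPM, knockout set I 159 to 207 CPM and knockout set P 206 to 240.5 CPM. The cause of the low sums in wild-type set I was not tested. Wild-type set I stood apart. Across genes, its 6 libraries had a positive trend of level with transcript GC content (r 0.211 to 0.648), against -0.207 to 0.0538 in wild-type set P, -0.138 to 0.0101 in knockout set I and -0.305 to -0.113 in knockout set P. The Mup members are poor in GC (39.6% to 40.5% in the longest transcript, with 5.72% to 8.52% of tested genes lower), and the Selenbp pair is rich in it (54.6% and 55.0%, with 78.3% and 80.2% of genes lower). The part of this trend in each result was not tested, and values are therefore given by set.

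Selenbp2 had far more mRNA in knockout liver at every time of day. Wild-type libraries lay between 29.9 and 149 CPM with a median of 51.1, and knockout libraries between 134 and 972 CPM with a median of 563. The only overlap came from the knockout ZT24 libraries, at 134 CPM in set I and 142 CPM in set P, which lay below the wild-type ZT16 set I library at 149 CPM. In set P the genotypes did not overlap. The knockout was higher in 12 of 12 pairs of the same set and time, and the means were 63.7 ± 34.8 and 533 ± 271 CPM (SD, n = 12 each), a ratio of 8.36. How many of all genes had no overlap or were higher in 12 of 12 pairs was not counted, here or for the genes below. The log2 change was 3.02 (SE 0.17), 3.18 in set I and 2.81 in set P, and it ran from 2.81 to 3.17 over all alternatives tried.

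**Figure D1:**
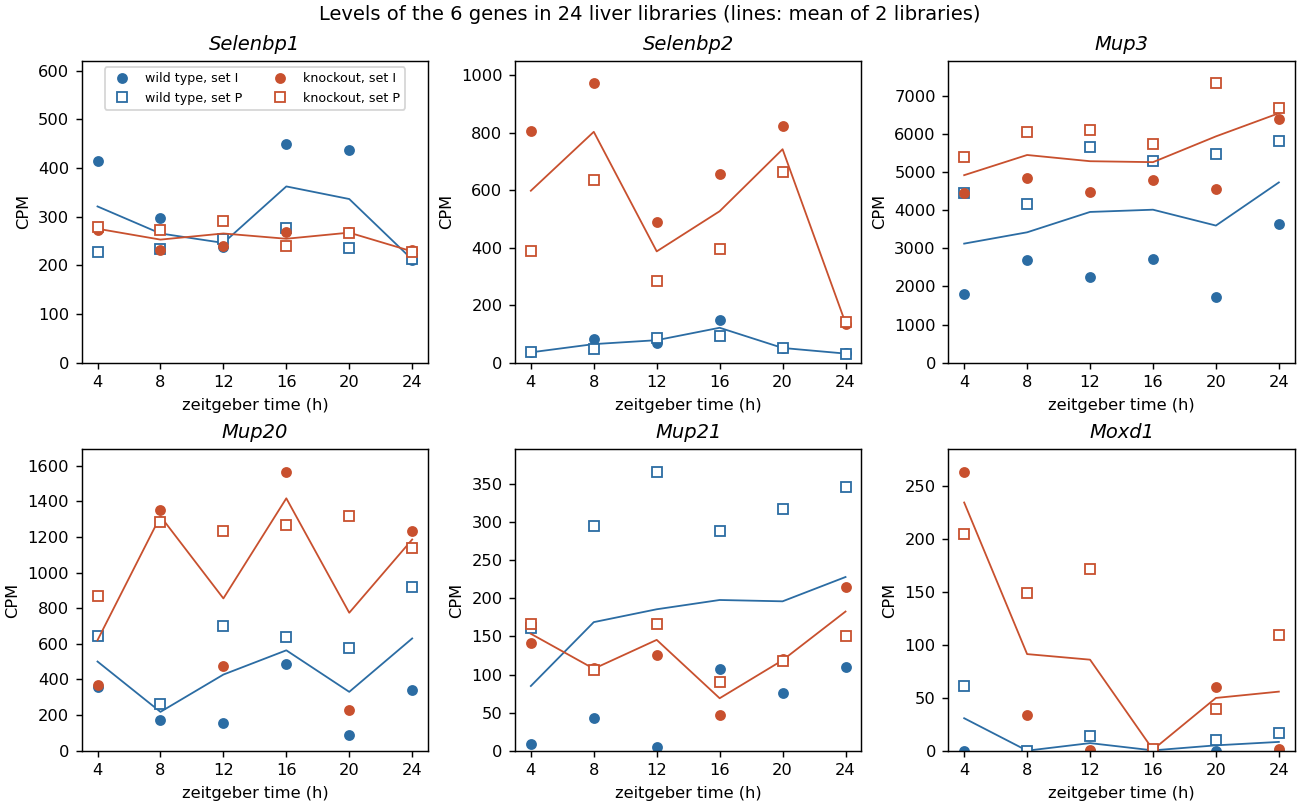
CPM (y axis, linear, from 0) of each gene in the 24 libraries against zeitgeber time in hours, with wild type in blue, knockout in red, set I as filled circles, set P as open squares and lines through the mean of 2 libraries. Selenbp2 was higher in knockout in all 12 pairs of the same set and time, whereas the Mup21 and Selenbp1 points of the genotypes overlapped.

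The size of the gap varied with the hour. At ZT04 wild type held 35.9 and 35.7 CPM and knockout 807 and 389 CPM in sets I and P, a ratio of means of 16.7. At ZT08 the wild-type libraries held 82.7 and 46.3 CPM and the knockout libraries 972 and 635 CPM, a ratio of 12.5. At ZT20 wild type held 51.5 and 50.7 CPM against 823 and 663 CPM, a ratio of 14.5. These 3 times had the widest gaps. At ZT12 wild type held 69.2 and 87.2 CPM and knockout 491 and 284 CPM, a ratio of 4.95. The wild-type maximum came at ZT16, with 149 and 94.2 CPM, where knockout held 657 and 397 CPM and the ratio was 4.34. At ZT24 both genotypes were at their lowest, 33.2 and 29.9 CPM in wild type and 134 and 142 CPM in knockout, a ratio of 4.38.

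Time of day was not a stated part of the choice of genes, but earlier results of these data were known when they were chosen. The tests over time are therefore not independent of that choice. In a comparison of the 6 group means, added after the data were seen, 6.66% of all genes changed over time in wild type and 2.25% in knockout (edgeR, adjusted p under 0.05). Of the 6 members, Selenbp2 changed in both, with an edgeR adjusted p of 0.0253 in wild type and 0.0209 in knockout, and the other 5 passed in neither with this filter on low counts. Without the filter Mup20 (edgeR adjusted p = 2.38e-06 in wild type and 0.000333 in knockout), Mup21 (0.000513 and 0.000592) and Moxd1 also passed in both, and without wild-type set I Mup21 passed in knockout (0.0312). DESeq2 and the fits that left out 1 library called Mup20, Mup21 and Moxd1 in neither genotype. The call of Selenbp2 was lost in wild type without ZT16 replicate 1, ZT24 replicate 1 or ZT24 replicate 2 (edgeR adjusted p up to 0.106) or with wild-type set I left out entirely (0.268). In knockout it was lost without ZT08 replicate 1, ZT24 replicate 1 or ZT24 replicate 2 (up to 0.161). A 24 h cosine gave 8.67% of all genes a rhythm in wild type and 3.57% in knockout, and none of the 6 members among them. For Selenbp2 the fitted wild-type peak was at 13.8 h with a log2 amplitude of 0.91 (edgeR adjusted p = 0.0919), and the knockout fit gave an amplitude of 0.30 (edgeR adjusted p = 0.989). DESeq2 called the wild-type rhythm of Selenbp2 (adjusted p = 0.0310).

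Whether the gap itself changed with the hour depended on the tool and on the filter. In the edgeR test of an interaction of genotype and time, the unadjusted p of Selenbp2 was 0.00320 and its adjusted p 0.431. That test called 0% of all genes, with 966 genes at an unadjusted p under 0.05 in edgeR and 129 genes called by DESeq2, in which Selenbp2 passed (adjusted p = 0.00875). Without the filter on low counts edgeR also called it (adjusted p = 4.87e-09). The difference of the cosine rhythms likewise called 0% of genes in edgeR, with 791 genes at an unadjusted p under 0.05 and 28 called by DESeq2, and Selenbp2 was not close to the threshold (edgeR adjusted p = 0.982).

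Selenbp1, the neighbouring copy, had no such gap between genotypes. Wild-type set I libraries lay at 211, 356.8 and 449 CPM (lowest, median, highest) and wild-type set P libraries at 213, 235 and 276 CPM. Knockout libraries lay at 231, 254 and 273 CPM in set I and at 227, 270.0 and 291 CPM in set P. The 3 highest values of all, 416, 449 and 437 CPM, came from ZT04, ZT16 and ZT20 in wild-type set I, the 3 libraries with the strongest GC trend (r 0.581 to 0.648). The other 21 libraries of both genotypes lay between 211 and 298 CPM. The log2 change was -0.15 (SE 0.12), with -0.41 in set I and 0.13 in set P, and knockout was higher in 7 of 12 pairs. In knockout the gene hardly varied, with a coefficient of variation of 0.0847 over 12 libraries, and Selenbp1 passed no test over time under any alternative tried.

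**Figure D2:**
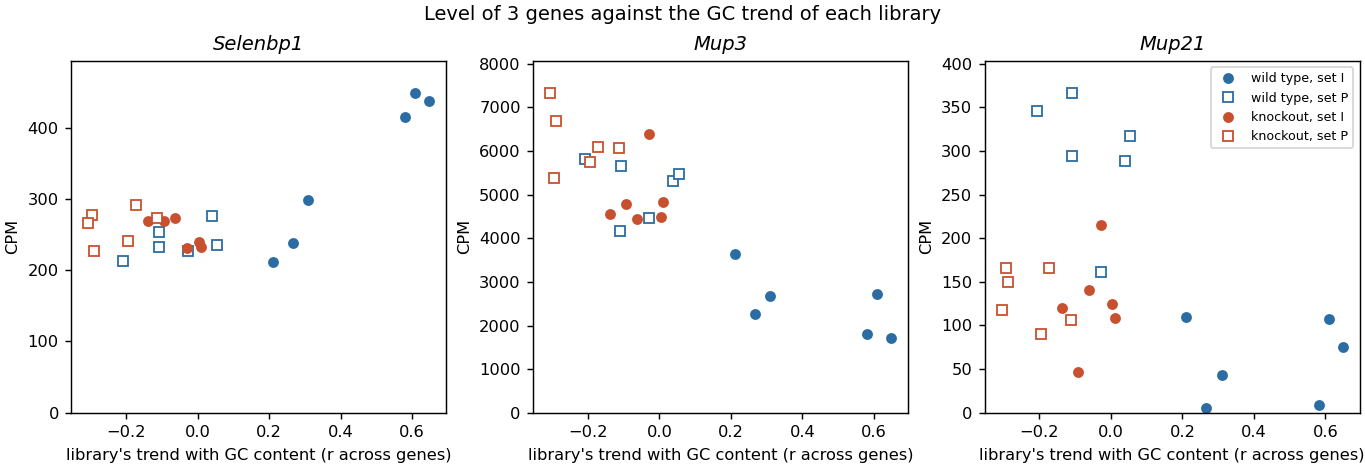
CPM (y axes, from 0) of Selenbp1, Mup3 and Mup21 in each of the 24 libraries against the library's correlation of level with transcript GC content across genes (x axis), with wild type in blue, knockout in red, set I filled and set P open. The 6 wild-type set I libraries lie at 0.211 to 0.648 on the x axis, and at r of 0.581 to 0.648 sit the highest Selenbp1 values.

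Because reads from shared stretches could be counted in either Selenbp row, the sum of both rows was also taken, which does not depend on how shared reads were split between them. Shared reads counted in neither row would be missing from the sum, and whether there were any is not known. The sum was 354 ± 110 CPM in wild type and 790.2 ± 277 CPM in knockout (SD, n = 12 each), a ratio of 2.23, and was higher in knockout in 12 of 12 pairs. Selenbp2 made up 7.94% to 25.6% of the sum in wild type and 36.7% to 80.7% in knockout, so the shares did not overlap. Per kilobase of exon, the wild-type mean of Selenbp1 was 128 CPM against 28.1 for Selenbp2, and in knockout Selenbp1 was at 113 and Selenbp2 at 235 CPM. Selenbp2 was above Selenbp1 in 0 of 12 wild-type and 9 of 12 knockout libraries. The exceptions in knockout were both ZT24 libraries and ZT12 set P.

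**Figure D3:**
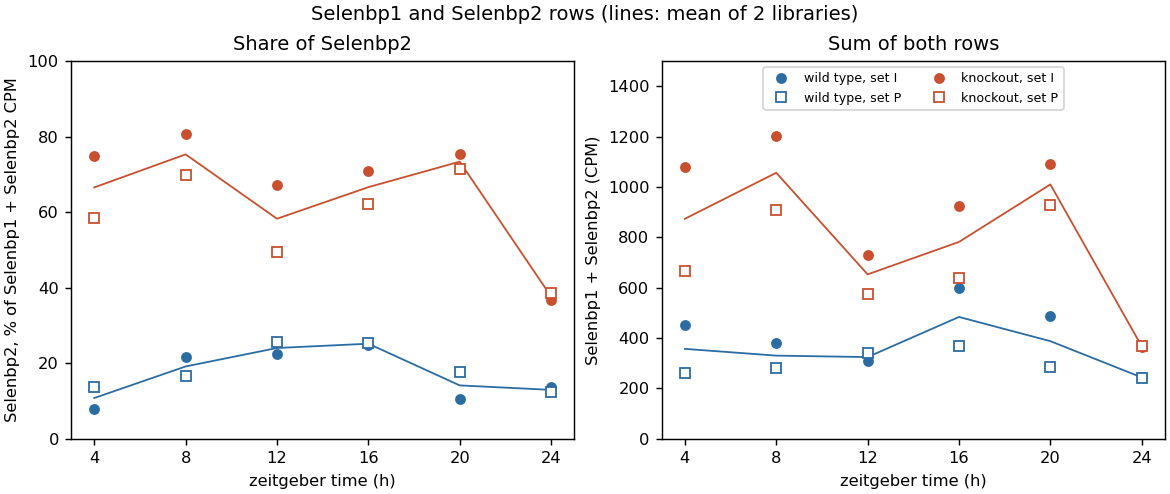
Left, Selenbp2 as a percentage of the summed CPM of Selenbp1 and Selenbp2 against zeitgeber time in hours; right, the sum of both in CPM (both axes from 0, colours and symbols as for the members by time). The knockout shares ran from 36.7% to 80.7% and the wild-type shares from 7.94% to 25.6%.

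Mup3 was the most abundant Mup gene, and its level was higher in knockout in every comparison of the same set and time, by an amount that depended on the set. Wild-type libraries lay at 1719, 2470 and 3635 CPM (lowest, median, highest) in set I and at 4159, 5393 and 5829 CPM in set P. Knockout libraries lay at 4454, 4667 and 6400 CPM in set I and at 5390, 6080 and 7331 CPM in set P. The genotypes did not overlap in set I and overlapped in set P, and wild-type set I lay below every other library. Wild-type set I is also the group with the GC trend, and the share of all genes without overlap in set I was not counted. The means were 3808 ± 1549 and 5569 ± 966 CPM (SD, n = 12 each), with a ratio of 1.46, a log2 change of 0.55 (SE 0.23) and knockout higher in 12 of 12 pairs. In set P the ratio was 1.21 and the log2 change 0.28, and without wild-type set I the log2 change over the other libraries was 0.12.

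Mup20, the darcin gene, had a larger ratio. Wild-type libraries lay at 85.8, 256 and 489 CPM in set I and at 262, 639.5 and 922 CPM in set P, and knockout libraries at 229, 855 and 1567 CPM in set I and 870.4, 1250 and 1320 CPM in set P. The genotypes overlapped in both sets. The low knockout values were those of set I at ZT20 (229 CPM), ZT04 (370.3 CPM) and ZT12 (475 CPM), while the other 9 knockout libraries lay at 870.4 to 1567 CPM. Knockout was higher in 12 of 12 pairs, with means of 445 ± 256 and 1028 ± 437 CPM (SD, n = 12 each), a ratio of 2.31 and a log2 change of 1.23 (SE 0.37). The ratio was 3.26 in set I and 1.90 in set P, and without wild-type set I the log2 change was 0.75.

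Mup21 went opposite ways in the 2 sets. In set I, wild-type libraries lay at 4.85, 59.1 and 110.0 CPM (lowest, median, highest) and knockout libraries at 47.1, 123 and 215 CPM, with knockout higher in 5 of 6 pairs. In set P, wild-type libraries lay at 162, 306 and 367 CPM and knockout libraries at 90.6, 134 and 166 CPM, with knockout higher in 1 of 6 pairs, ZT04. The knockout sets were alike, and it was wild type that differed between them, by up to 75.6-fold at ZT12 (4.85 against 367 CPM). Over both sets the means were 177 ± 137 and 130 ± 42.7 CPM (SD, n = 12 each) with a log2 change of -0.45 (SE 0.55), which became 0.12 without wild-type ZT04 replicate 2 and 0.43 without wild-type ZT12 replicate 2. Without wild-type set I it was -1.21.

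**Figure D4:**
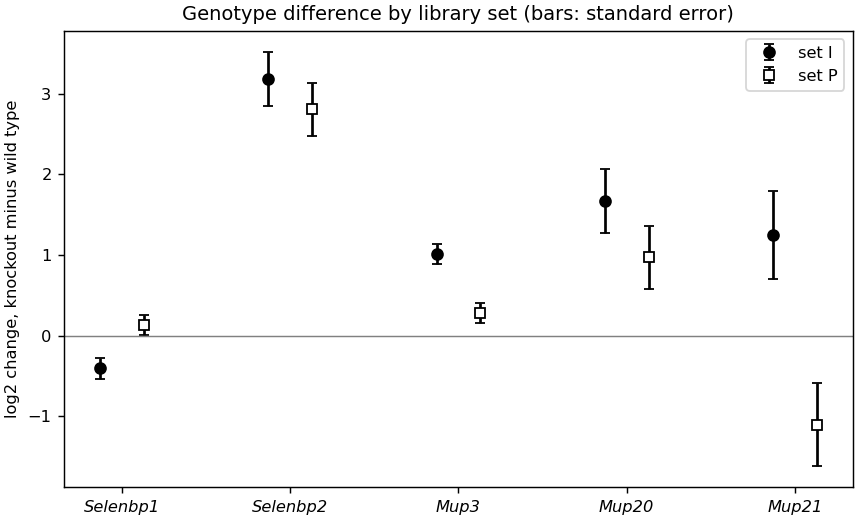
Fitted log2 change, knockout minus wild type (y axis), of 5 genes in set I (filled circles) and set P (open squares), with standard errors as bars and a line at 0; Moxd1 is not drawn because its wild-type set I libraries hold almost no counts. Selenbp2 lies near 3 in both sets, and Mup21 is at 1.25 in set I and -1.10 in set P.

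The difference between the sets was tested in a fit added after the data were seen, which called 9.81% of all genes (edgeR). Of the 6 members Mup3 (log2 change 1.01 in set I and 0.28 in set P, edgeR adjusted p = 0.0371) and Mup21 (1.25 and -1.10, adjusted p = 0.0493) passed. For Selenbp1 the edgeR adjusted p was 0.0557, for Moxd1 0.0532, for Mup20 0.359 and for Selenbp2 0.539. DESeq2 also called Selenbp1 (adjusted p = 0.0337) and Moxd1 (0.00961), edgeR without the filter called Moxd1 (0.0401), and edgeR with the size factors of DESeq2 did not call Mup21 (0.0527). The calls rested on few libraries: the number of genes called ran from 6 to 4273 when single libraries were left out, and was 6 without wild-type ZT04, ZT16 or ZT20 replicate 2 or knockout ZT24 replicate 2, and 4273 without wild-type ZT24 replicate 1. The Mup3 call was lost in 18 and the Mup21 call in 21 of these 24 fits.

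The rest of the Mup cluster was read beside the members. The table lists 22 coding Mup genes and 27 Mup pseudogenes, of which 21 and 13 passed the filter. In the genotype contrast 12.1% of all genes were called higher and 21.1% lower in knockout, with a median log2 change of -0.02. Of the members Selenbp2, Mup20 and Moxd1 were among the genes called higher and none among those called lower, which restates how they were chosen. These calls moved with the processing: Mup3 was also called higher with either replicate block, with DESeq2, without the filter and in each set alone. Without wild-type set I, Mup20 and Moxd1 were not called and Mup21 was called lower. Mup21 was also called lower in set P alone (log2 change -1.17) and without the filter (-0.46). Of the 18 other coding Mup genes tested, 8 rose in knockout and 0 fell, and all 18 had a log2 change above 0 over both sets, with a median of 0.78. The 8 were Mup5, Mup6, Mup8, Mup9, Mup10, Mup13, Mup17 and Mup18, among them the abundant Mup17 (445 to 1013 CPM, log2 change 1.39) and Mup9 (409.9 to 859 CPM, 1.31). Several were low, with wild-type and knockout means of 0.33 and 0.61 CPM for Mup5 and 0.72 and 1.32 CPM for Mup6. Mup8 was at 1.79 and 3.35 CPM and Mup13 at 1.80 and 3.87 CPM, with 12.5% and 7.2% unique 50-base stretches. Mup7, the next most abundant after Mup3, went from 1693 to 2742 CPM (0.59, SE 0.53) and did not pass. Of the pseudogenes, Mup-ps13, Mup-ps15 and Mup-ps19 rose and none fell. Over both sets Mup21 was the only tested coding Mup gene with a log2 change below 0. By set, Mup1 (1.16 in set I and -0.32 in set P, edgeR adjusted p of the difference = 0.0952) and Mup12 (0.94 and -0.41, 0.0864) were also below 0 in set P, and Mup15 was below 0 in set I (-0.35 and 1.04, 0.653). These rows share sequence, so they are not independent of each other, and the members had been picked from them with their values known.

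The sum of all Mup rows was 8306 ± 3547 CPM in wild type and 13550 ± 4391 CPM in knockout (SD, n = 12 each), a ratio of 1.63, with knockout higher in 11 of 12 pairs. It was 2230 to 8184 CPM in wild-type set I, 7637 to 14090 CPM in wild-type set P, 7090 to 18850 CPM in knockout set I and 11500 to 19250 CPM in knockout set P. In set P alone the ratio of means was 1.43, with knockout higher in 5 of 6 pairs. Mup3 supplied 27.6% to 77.1% of the sum in wild type and 31.5% to 67.5% in knockout, Mup20 1.92% to 9.37% and 2.64% to 22.1%, and Mup21 0.0593% to 3.86% and 0.551% to 1.55%. In a bulk liver sample a lower number of cells of a type and less RNA per cell cannot be told apart.

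**Figure D5:**
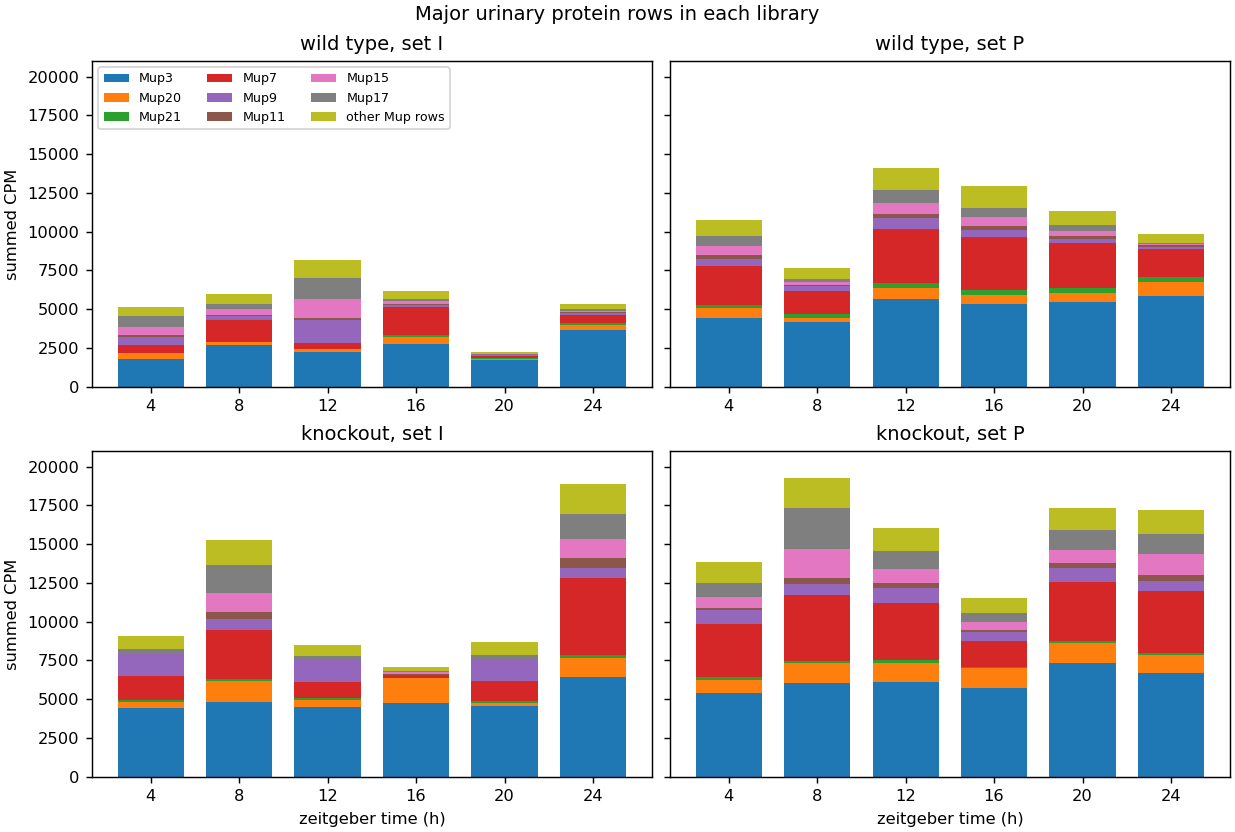
Stacked bars of summed CPM (y axis, from 0) of the Mup rows in each library by zeitgeber time in hours (x axis), for each genotype and set; colours mark Mup3, Mup20, Mup21, 5 other abundant rows and the remainder. The knockout set I bars at ZT04, ZT12 and ZT20 have almost no Mup15, and the one at ZT16 has almost no Mup9 and the largest Mup20 share, 22.1%.

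Single libraries differed in which Mup rows they held. Mup15 was at 67.4 CPM or more in all 12 set P libraries, but at 0.218, 0.762 and 0.492 CPM in knockout set I at ZT04, ZT12 and ZT20 and at 0.247 CPM in wild-type set I at ZT20. The 3 knockout libraries also had Mup11 at 8.55, 7.09 and 10.8 CPM, Mup9 at 1429, 1406 and 1433 CPM and the 3 lowest knockout levels of Mup20. The fourth, from wild type, had Mup9 at 100.1 CPM, Mup20 at 85.8 CPM and the lowest Mup sum of all. Knockout set I at ZT16 showed another pattern, with Mup9 at 3.84 CPM, Mup7 at 173 CPM and the highest Mup20 level of any library, 1567 CPM. Leaving out the 4 libraries with Mup15 under 1 CPM, all from set I, gave a log2 change of 1.39 for Mup20. That step was added after the data were seen, and it rests on the Mup15 row, whose transcripts had no unique 50-base stretch.

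Moxd1 varied more between libraries of one group than any other member, with a within-group SD of 3.76 on the log2 CPM scale against 0.31 to 1.77 for the other 5. Wild-type set I held 0, 1, 0, 0, 0 and 1 counts from ZT04 to ZT24, at most 0.0573 CPM, where 3 counts correspond to 0.153 to 0.215 CPM. Wild-type set P held 61.4, 0.0582, 14.4, 0.637, 10.2 and 16.6 CPM in the same order. Knockout set I held 264, 33.5, 0.410, 0.110, 60.7 and 1.91 CPM, and knockout set P 205, 149, 172, 1.90, 39.1 and 110 CPM. Libraries of one group differed by up to 418.5-fold in knockout, at ZT12, and the genotypes overlapped. In both sets knockout was higher at each time, 12 of 12 pairs, with means of 8.61 ± 17.8 and 86.5 ± 91.6 CPM (SD, n = 12 each) and a log2 change of 4.11 (SE 1.25). Leaving out single libraries moved that change between 2.83, without knockout ZT12 replicate 2, and 6.11, without wild-type ZT04 replicate 2.

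For set I the Moxd1 ratio rests on 2 wild-type counts against 6466 knockout counts, summed over libraries and times, a ratio of 3163 after scaling. Of these knockout counts 4849 came from the ZT04 library, while ZT12, ZT16 and ZT24 held 7, 2 and 33. In set P the summed counts were 1572 and 11529, a ratio of 7.10. Both ratios describe pooled counts and leave out the large spread between libraries. At ZT16 the level was low in all 4 libraries, at most 1.90 CPM, and the change over time in Moxd1 did not pass with the filter on low counts (edgeR adjusted p = 0.479 in wild type and 1 in knockout). Without the filter Moxd1 passed in both (edgeR adjusted p = 4.09e-107 and 5.01e-83). Yet where both libraries of a group held counts, they differed by up to 325-fold in wild type and 418.5-fold in knockout. DESeq2 with the filter and the fits that left out 1 library did not call it, so a change over time is not taken as shown.

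The members moved together only in part. Over the 24 libraries, Mup3 and Mup20 had a Pearson r of log2 CPM of 0.80 (0.80 within the 12 wild-type and 0.63 within the 12 knockout libraries), and Mup3 and Mup21 of 0.69 (0.82 and 0.32). Selenbp1 and Selenbp2 had an r of -0.03 over all libraries but 0.42 within wild type and 0.39 within knockout, and Selenbp1 and Mup3 of -0.64 (-0.72 and -0.10). The libraries share sets and GC trends, so these values are descriptions.

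The genes most like each member over the 24 libraries, among 10651 genes searched, were found by the same r. Within wild type, set I had the GC trend, the highest Selenbp1 levels and lower Mup3 and Mup21 levels than set P. The part of this difference between sets in the r values was not tested. Selenbp1 was nearest to Upb1 (0.93), Slc25a1 (0.92) and Pipox (0.90), with r of 0.96 to 0.98 within wild type and 0.42 to 0.57 within knockout. Selenbp2 was nearest to Fitm1 (0.89), Tead2 (0.88) and Olfml1 (0.88), genes of low level whose wild-type and knockout means were 2.98 and 6.70, 0.837 and 7.77, and 9.76 and 18.7 CPM. Within one genotype those r values were 0.11 to 0.74. Mup3 was nearest to Aadac (0.95), the growth hormone receptor gene Ghr (0.94) and Zfp141 (0.93), Mup20 to Pin4 (0.77), Dkk3 (0.77) and Cyp3a25 (0.76), and Mup21 to the complement gene C6 (0.86), Slc22a28 (0.79) and Cyp7b1 (0.77). For Mup3 the r values were 0.95 to 0.99 within wild type and 0.54 to 0.64 within knockout. For Mup20 they were 0.70 to 0.80 and 0.36 to 0.57, and for Mup21 0.84 to 0.94 and 0.41 to 0.86, in the same order. Moxd1 was nearest to Nup54 (0.81), Atg10 (0.78) and Polb (0.78), 3 genes of general cell functions on chromosomes 5, 13 and 8, with r of 0.66 to 0.78 in wild type and 0.78 to 0.81 in knockout.

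Genes of the members' pathways were counted from lists chosen with earlier results known, against 12.1% higher and 21.1% lower over all genes. Of 21 growth hormone signalling genes tested 4 rose and 4 fell, and those with the smallest p fell: Igfbp2 from 568 to 251 CPM (log2 change -1.19), Igfbp1 (-1.18) and Hnf4a (-0.35), with edgeR adjusted p of 3.85e-06, 0.000963 and 0.00476. Of 18 other male-biased liver genes 1 rose and 4 fell, among them Nat8 (-4.21), Cyp2d9 (-0.69) and Gna12 (-0.34). Of 15 female-biased genes 6 rose and 5 fell, and the smallest p belonged to falls of Acot3 (-2.52), Hamp2 (-2.88) and Acot4 (-0.87). Of 27 selenoprotein and selenium handling genes 1 rose and 10 fell, including Selenos (-0.37), Gpx1 (-0.52) and Txnrd2 (-0.52). Of 15 sulfide and methanethiol genes 1 rose and 9 fell, including Mat1a (-0.72), Sqor (-0.52) and Suox (-0.66). Of 11 lipocalins outside the cluster 1 rose and 3 fell, the retinol carrier Rbp4 (-0.57), Apom (-0.60) and C8g (-0.41). Of 20 copper genes 3 rose and 7 fell, with Sod1 (-0.46), Loxl4 (1.0) and Atox1 (-0.46) first, while Dbh and Moxd2, relatives of Moxd1, were at 0 in every library.

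Cell type markers were read for the whole lists. Of 8 hepatocyte markers 0 rose and 5 fell. Their summed level was 75720 to 104700 CPM in wild type and 49770 to 72280 CPM in knockout. Much of this sum was Alb, with means of 62610 CPM in wild type and 35380 CPM in knockout (log2 change -0.84). Whether hepatocyte content had a part in the levels of the members was not tested. Of 8 pericentral and 8 periportal markers 1 and 0 rose and 3 and 2 fell. Of 8 Kupffer cell, 8 endothelial and 8 stellate cell markers 3, 1 and 1 rose and none fell, with summed levels that overlapped between genotypes. Cholangiocyte markers rose in 1 and fell in 1 of 7 and mesothelial markers fell in 2 of 5. Of the blood cell lists, T and NK cell markers fell in 1 of 6, B cell markers in 4 of 6 and neutrophil markers in 2 of 5, and red cell markers rose in 1 of 5. Pancreatic acinar markers summed to at most 2.06 CPM, with Prss2, Pnlip and Amy2b at 0 in every library.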

How the data were processed

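Liver mRNA was measured in 24 libraries. Per the labels' protocols, lysis was in guanidinium thiocyanate and a TruSeq Stranded mRNA kit made the libraries. The values are raw counts for each Ensembl gene, in a single table that the authors deposited. STAR 2.4.0i and mm10 stand in the submitters' processing notes. Read length, strand setting, annotation and counting tool were not given in the sources used here, so how reads shared by near-identical copies were counted is not known. The members and all lists were chosen with earlier results of these data known.

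Of 54532 gene IDs 54495 matched a symbol in GENCODE M21. Totals were 14613001 to 19288322 counts per library. The deposited counts were tested with the quasi-likelihood F-test of edgeR 4.0.16 in R 4.3.3, with TMM scaling, filterByExpr by group (minimum 10 counts) and Benjamini-Hochberg adjustment over all 15090 genes tested, called under 0.05. A fit of 12 group means gave the genotype contrast and the interaction, and another with cosine and sine terms of 24 h the rhythms. Another 2 fits were added after the data were seen, a test of the 6 times within each genotype and a test of the genotype difference between sets. Likeness used log2 CPM (prior count 2) over genes with a mean of at least 1. Named genes were the members, every tested Mup gene, up to 3 genes per list with the smallest p, and 3 genes per member with the highest r, leaving out clone and pseudogene names. Transcripts were compared in stretches of 50 and 100 bases on both strands, and coding sequences by global alignment (Biopython 1.88). The fits were tested on simulated data.

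Libraries of the same letter and time deviated from their group means with r of 0.184, 0.123, 0.231, 0.0705, 0.0541 and 0.0842 from ZT04 to ZT24, not all over 0.1, so the letters were not used as pairs, and a count of pairs compares libraries of 1 set and time without a paired test. Alternatives were DESeq2 1.42.0, other size factors, no filter, replicate blocks, each set alone, each library left out, and 2 groups of libraries left out. No 2 libraries of a group agreed within sampling noise.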

Additional observations from a re-analysis of the deposited data

Results flagged for a closer look

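The genotype difference of Mup3 and of Mup21 differed between set I and set P by a direct test of that difference, in a fit added after the data were seen. That fit called 9.81% of all genes (edgeR), and both calls lay near the threshold. Of 28 alternatives, 19 lost the Mup3 call and 23 the Mup21 call. Among the latter was edgeR with the size factors of DESeq2 (adjusted p = 0.0527). For Mup3 the log2 change in set P minus that in set I was -0.73 (SE 0.17, edgeR adjusted p = 0.0371), with knockout higher in 6 of 6 pairs in either set. For Mup21 it was -2.35 (SE 0.73, edgeR adjusted p = 0.0493), with knockout higher in 5 of 6 pairs in set I and in 1 of 6 in set P. Over the fits that left out 1 library the adjusted p ran from 0.00511 to 0.0920 for Mup3 and from 0.0212 to 0.103 for Mup21. Without the 4 libraries with Mup15 under 1 CPM, a step chosen after seeing the data, neither passed (edgeR adjusted p = 0.168 for Mup3 and 0.231 for Mup21). Those 4 libraries were all from set I. Wild-type set I, the low side of both genes, also had the GC trend given in the report, and its part in the difference was not tested.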

How the results depend on the processing

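Counts of genes called moved with several choices, and the cause was not tested. Without the filter on low counts 3605 genes were higher in knockout, 72 differed in rhythm, 639 had an interaction, and 2437 and 1139 changed over time in wild type and knockout. DESeq2 called 995 knockout rhythms, 28 rhythm differences, 129 interactions, 1876 and 777 changes over time and 3204 differences between sets. With a replicate block for the set, 3794 genes were higher in knockout, 7 had an interaction and 1632 changed over time in wild type. Set I alone gave 2749 genes higher in knockout and 0 rhythms in either genotype, and set P alone 1013 higher, 955 lower and 838 wild-type rhythms. Without wild-type set I, 1366 genes were lower, 755 and 2714 were rhythmic in wild type and knockout, 22 had an interaction, and 524 and 1938 changed over time. Without the 4 libraries with Mup15 under 1 CPM, 637 genes were higher and 1190 lower, 442 and 105 changed over time and 2 differed between sets. Both of the last settings were chosen after seeing the data. Leaving out single libraries gave 1202 to 4744 genes higher (fewest without wild-type ZT16 replicate 1, most without wild-type ZT20 replicate 2), 2113 to 4386 lower, 914 to 2012 wild-type rhythms, 381 to 847 knockout rhythms, 0 to 3 rhythm differences, 0 to 14 interactions, 517 to 3587 and 206 to 545 changes over time (517 and 3587 without wild-type ZT12 replicate 1 and ZT20 replicate 2), and 6 to 4273 differences between sets.

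The log2 changes of Selenbp2, Mup3, Mup20 and Moxd1 were above 0 in all 33 alternatives, with 0.12 for Mup3 without wild-type set I. Their calls moved more: Mup20 was not called in 3 (without knockout ZT12 or ZT20 replicate 2, or wild-type set I) and Moxd1 in 10, 8 of which left out 1 library, while Mup3 was called in 10. The Mup21 change was above 0 in 5, including 0.07 and 0.28 under the 2 forms of the replicate block and 1.66 in set I alone, and the Selenbp1 change in 2 (0.12 in set P alone, 0.11 without wild-type set I). Mup21 was called in 3, each time as lower: without the filter, in set P alone and without wild-type set I. The replicate block gave log2 changes of 1.33 and 5.32 for Mup20 and Moxd1, added a call of Mup3 and changed no call of a member over time. Without the filter, edgeR called an interaction and a change over time in both genotypes for Selenbp2, Mup20, Mup21 and Moxd1. For Mup20, Mup21 and Moxd1 no other alternative called the interaction. Moxd1 was at 3 counts or fewer in 7 wild-type libraries and 1 knockout library, and the cause was not tested.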
